A study of Mus musculus with 6 samples.

Results

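The insulin-like growth factor (IGF) axis was followed here through 10 genes, its ligands Igf1 and Igf2, its receptors Igf1r and Igf2r, and the binding proteins Igfbp2 to Igfbp7. These genes were picked by name, and each probe set that the platform annotation gives exactly 1 of these symbols was taken, which made 28 probe sets among 45037 on the array. A further probe set shared by Igf2r and the antisense transcript Airn was left out. The samples were uteri of Ihhf/f mice, homozygous for a floxed Indian hedgehog allele and used as control, and of PRcre/+ Ihhf/f mice, labelled Ihhd/d, in which a Cre expressed from the progesterone receptor locus deletes Ihh. There were 3 arrays per genotype. Both groups come from day -1 of an artificially induced decidual response, both carry the floxed alleles, and only the Ihh-ablated group carries the Cre. The labels state no age or strain background, nor whether each array stands for a separate mouse, so the p-values speak only of the spread between these arrays, part of which may be technical.

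IGF1 and IGF2 are secreted growth factors that signal through the tyrosine kinase receptor encoded by Igf1r. The product of Igf2r, a mannose 6-phosphate receptor, takes IGF2 up for breakdown. IGF binding proteins hold the ligands in the extracellular space and can hinder or aid their access to the receptor, and secreted proteases release the ligands by cutting the binding proteins. In the rodent uterus Igf1 is a known oestrogen-induced product of the stroma that acts on epithelial proliferation.

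Each array gives 1 linear intensity per probe set, as processed by the authors. The median intensity was 142.5 in control replicate 2 and 121.4 to 125.8 in the other 5 arrays. The Hedgehog targets Gli1 and Ptch1 fell, with log2 differences of -2.53 and -1.65 (limma adjusted p = 0.000492 and 0.00146), while the Ihh probe set differed by -0.43 (adjusted p = 0.164). Ihh read 163.9, 162.3 and 140.2 in control arrays and 121.4, 93.3 and 135.4 in Ihh-ablated uteri, and whether it lies in the deleted part is not stated. Uterine tissue markers were present in both groups, with summed intensities of 43400 to 47876 in control arrays and 41950 to 42572 in Ihh-ablated ones for 12 stroma markers and of 51462 to 54771 and 52188 to 52567 for 8 smooth muscle markers. The arrays also differed in transcripts of other tissues. The sum of 6 adipocyte markers was 1557, 4181 and 7126 in control arrays and 5551, 9023 and 14851 in Ihh-ablated ones. Control replicate 3 stood apart by striated muscle markers (8244, against 627 to 976 in the other 5 arrays) and Ihh-ablated replicate 2 by pancreas markers (52155, against 769 to 2209). These are bulk uterine samples, so fewer cells of a type and less RNA per cell cannot be told apart.

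Igfbp5 rose and Igfbp4 fell in Ihh-ablated uteri, and the other 8 genes did not pass the test. Igfbp5 was 1.48-fold higher by its brightest probe set, and Igfbp4 was 1.19-fold lower by its own (n = 3 per group). Of the 28 probe sets, 27 passed the filter on dim probe sets, and 5 of these were called, 2 higher and 3 lower. Over the whole array 2.14% of tested probe sets were called, 1.03% higher and 1.11% lower. The 5 calls belong to 2 genes, and probe sets of 1 gene are not independent of each other. Counted by gene through the brightest probe set, 1 of 10 rose and 1 fell, against 2.81% of all tested genes called, 1.28% higher and 1.53% lower. The groups did not overlap for 14 of the 27 probe sets, 6 higher and 8 lower, where 31.0% of all tested probe sets did not overlap, 13.1% higher and 17.9% lower. The median log2 difference of the 27 was -0.15, beside -0.04 for all tested probe sets, and their median size regardless of sign was 0.23, beside 0.17.

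**Figure D1:**
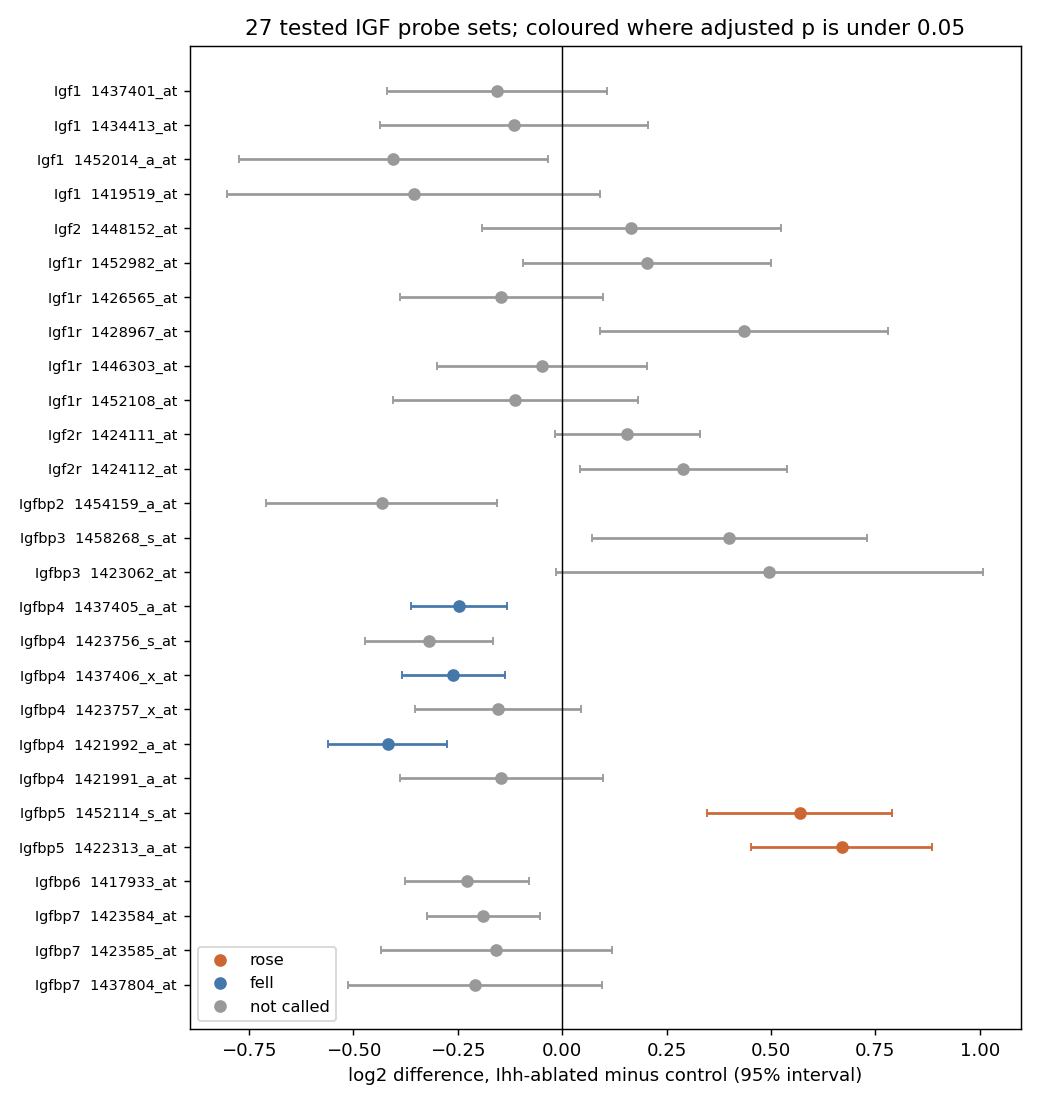
Log2 difference between Ihh-ablated and control arrays (horizontal axis) for the 27 tested probe sets, with bars for the 95% interval of the limma fit. Both Igfbp5 probe sets lie to the right of 0 (0.57 and 0.67), the 6 Igfbp4 probe sets lie to the left, and 3 of those 6 are called.

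Among the ligands, Igf1 had a lower mean by all of its 4 probe sets without passing the test. Its brightest probe set, 1437401_at, read 4499, 3843 and 3855 in control arrays and 3634, 4339 and 3053 in Ihh-ablated uteri. The groups overlapped, and the log2 difference was -0.16 (95% interval -0.42 to 0.11, adjusted p = 0.428). A second probe set, 1452014_a_at, read 1681, 1305 and 1070 in control arrays and 953.7, 1199 and 885.3 in Ihh-ablated uteri, a difference of -0.40 (-0.78 to -0.03, adjusted p = 0.190). The remaining ones gave -0.12 and -0.36 (adjusted p = 0.632 and 0.302). All 4 probe sets were highest in control replicate 1, and within the Ihh-ablated group all 4 were highest in replicate 2 and lowest in replicate 3.

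The Igf1 values depended on single arrays. Without control replicate 3, 1452014_a_at fell by 0.56 (adjusted p = 0.0449). Without that array and Ihh-ablated replicate 2, the pair that carries muscle and pancreas transcripts, it fell by 0.69 (adjusted p = 0.0122) and 1419519_at by 0.68 (adjusted p = 0.0313). The brightest probe set stayed uncalled in each of 19 alternatives. With the mean of the adipocyte markers as a covariate, 3 of the 4 probe sets turned to small positive differences, of 0.011, 0.14 and 0.039, none of them called.

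Igf2, a fetal growth factor whose expression in adult tissue is low, has 2 probe sets on the array, and 1 of them was too dim to be tested (40.6 to 53.3). The other read 207.9, 277.3 and 312.8 in control arrays and 265.8, 293.2 and 326.0 in Ihh-ablated uteri. The ranges overlapped in part, with a log2 difference of 0.17 (-0.19 to 0.52, adjusted p = 0.535). Its lowest array was control replicate 1 and its highest was Ihh-ablated replicate 3, which are also the arrays with the lowest and highest sums of adipocyte markers. With those markers as a covariate the difference was -0.16 (adjusted p = 0.655), and without control replicate 1 it was -0.0024 (adjusted p = 0.992). Those markers were also higher on average in Ihh-ablated arrays, so the covariate overlaps with genotype. A part of adipocyte RNA in the Igf2 values was not tested.

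**Figure D2:**
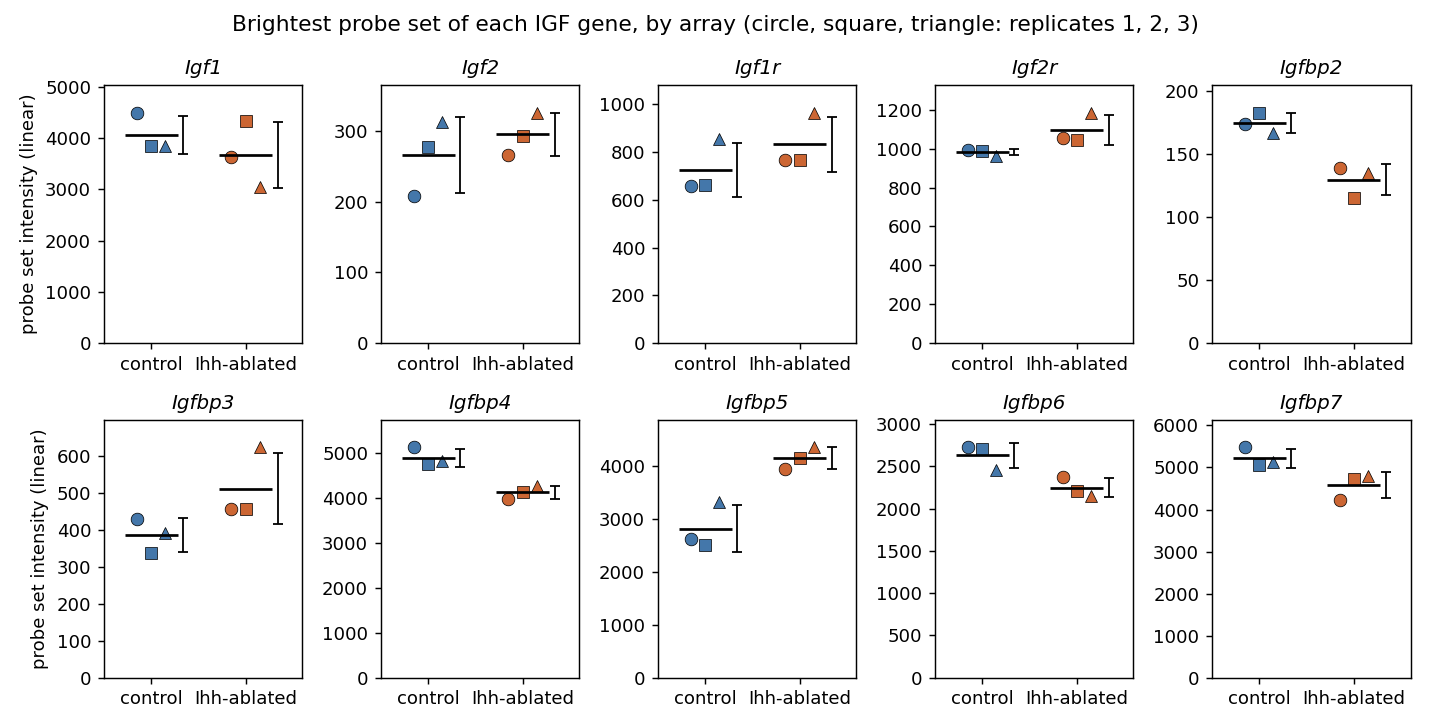
Linear intensity (vertical axis, from 0) of the brightest probe set of each of the 10 genes in 3 control and 3 Ihh-ablated arrays, with the mean as a line and the SD as a bar. Control and Ihh-ablated points are fully apart for Igf2r, Igfbp2, Igfbp3, Igfbp4, Igfbp5, Igfbp6 and Igfbp7, and they overlap for Igf1, Igf2 and Igf1r. Only Igfbp4 and Igfbp5 passed the test. Over the array 31.0% of all tested probe sets did not overlap, and the share for brightest probe sets alone was not computed.

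The receptors did not pass. Igf1r is read by 5 probe sets, which disagreed in direction. The brightest, 1452982_at, read 657.1, 661.6 and 855.7 in control arrays and 767.9, 766.4 and 966.1 in Ihh-ablated uteri. Replicate 3 was the highest array of each genotype, the groups overlapped, and the log2 difference was 0.20 (-0.09 to 0.50, adjusted p = 0.365). The probe set 1428967_at was higher in every Ihh-ablated array, at 159.5, 149.0 and 182.4 against 130.6, 99.1 and 135.4, a difference of 0.44 (0.09 to 0.78, adjusted p = 0.152). The other 3 gave -0.15, -0.05 and -0.11 (adjusted p = 0.423 to 0.805). Which part of the transcript each of them reads was not analysed here. With the adipocyte covariate the brightest gave -0.016.

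Igf2r gave the same direction by both of its probe sets. The brightest read 992.1, 990.5 and 965.0 in control arrays and 1057, 1046 and 1186 in Ihh-ablated uteri. Each Ihh-ablated array lay above each control array, by a small margin, with a log2 difference of 0.16 (-0.02 to 0.33, adjusted p = 0.259). The dimmer probe set read 516.0, 480.7 and 412.1 against 553.4, 543.4 and 621.1, likewise without overlap, a difference of 0.29 (0.04 to 0.54, adjusted p = 0.170). Neither was called in any of the alternatives, in which the lowest adjusted p was 0.135.

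Igfbp5 encodes a matrix-associated binding protein made by mesenchymal cells. Its brightest probe set, 1452114_s_at, read 2622, 2507 and 3324 in control arrays and 3941, 4151 and 4356 in Ihh-ablated uteri (2817 ± 442 against 4149 ± 207, mean ± SD, n = 3 each). The highest control array, replicate 3, still lay below every Ihh-ablated array. The log2 difference was 0.57 (SE 0.10, 95% interval 0.35 to 0.79, adjusted p = 0.0237).

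The second Igfbp5 probe set, 1422313_a_at, read 349.9, 392.0 and 369.2 in control arrays and 548.4, 627.1 and 591.7 in Ihh-ablated uteri (370.3 ± 21.1 against 589.1 ± 39.4). Here the control arrays lay close together, and the gap between the groups was wider than the spread within either. This was a 1.59-fold rise, with a log2 difference of 0.67 (SE 0.10, interval 0.45 to 0.89, adjusted p = 0.0117). Control replicate 3 was high in the brightest probe set and not in this one. The mean of both probe sets, adjusted over genes, rose by 0.62 (adjusted p = 0.00837).

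The rise kept its direction in every alternative, while its call depended on the arrays and, for the brightest probe set, on the processing. That probe set lost its call with median-centred arrays (adjusted p = 0.0550) and without an intensity trend (0.0898). The set 1422313_a_at kept its call in both settings (0.0140 and 0.0293). The 1422313_a_at call was lost when control replicate 1 was left out (adjusted p = 0.0588) or Ihh-ablated replicate 3 (0.0532). With 1 array left out, the brightest probe set kept its call only without control replicate 3, and otherwise gave adjusted p values from 0.0566 to 0.111. Adipocyte markers were higher on average in Ihh-ablated arrays, and with them as a covariate, which leaves fewer degrees of freedom, the 2 differences were 0.42 (adjusted p = 0.306) and 0.60 (0.187). Without the pair of arrays with muscle and pancreas transcripts both probe sets were called, among 6 member probe sets in all (2 higher, 4 lower), while 5.86% of all tested probe sets were called in that setting.

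Igfbp4 encodes a binding protein known mainly for hindering IGF action. Its brightest probe set, 1437405_a_at, read 5116, 4742 and 4807 in control arrays and 3972, 4134 and 4247 in Ihh-ablated uteri (4888 ± 200 against 4118 ± 138). The groups did not overlap, and the log2 difference was -0.25 (SE 0.05, interval -0.36 to -0.13, adjusted p = 0.0437). The largest difference came from 1421992_a_at, which read 2330, 2394 and 2228 in control arrays and 1660, 1722 and 1823 in Ihh-ablated uteri. That was a 1.34-fold fall, or -0.42 on the log2 scale (SE 0.06, adjusted p = 0.0137).

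The other Igfbp4 probe sets all pointed down. The set 1437406_x_at fell from 3444 ± 80.8 to 2876 ± 126 (log2 -0.26, adjusted p = 0.0458). The set 1423756_s_at, at 3968 ± 276 and 3179 ± 188, missed the threshold narrowly without overlap (-0.32, adjusted p = 0.0500078). Both 1423757_x_at (-0.15, adjusted p = 0.318) and 1421991_a_at (-0.15, adjusted p = 0.423) had overlapping groups. In Affymetrix naming the x marks probe sets with probes that may also match other sequences.

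The size of the Igfbp4 fall lies near the limit of what these arrays resolve. The brightest probe set lost its call when any 1 array other than control replicate 3 was left out (adjusted p = 0.0817 to 0.167). It also lost it with arrays centred on their medians (-0.16, adjusted p = 0.316), which moves the median of all tested probe sets by 0.09, and it missed the threshold without the pair of arrays with muscle and pancreas transcripts (-0.26, adjusted p = 0.0508). Without the filter on dim probe sets (0.0624) or without an intensity trend (0.179) the brightest probe set was not called either. The set 1421992_a_at kept its call when control replicate 3, Ihh-ablated replicate 2 or Ihh-ablated replicate 3 was left out, and lost it without control replicate 1 (0.0699), control replicate 2 (0.0595) or Ihh-ablated replicate 1 (0.0770). It also lost its call with median-centred arrays (-0.33, adjusted p = 0.102), where no Igfbp4 probe set was called, and without an intensity trend (0.0885). With the adipocyte covariate the brightest gave -0.23 (adjusted p = 0.396), and the mean of the 6 probe sets gave -0.26 (adjusted p = 0.0687).

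**Figure D3:**
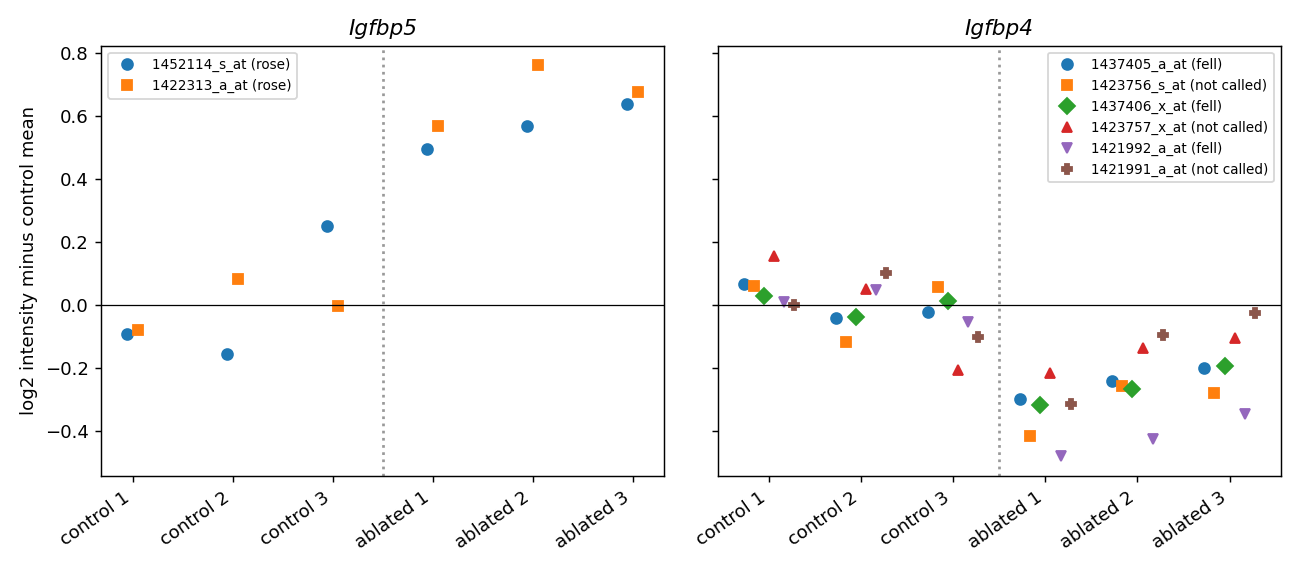
Log2 intensity relative to the control mean of the same probe set (vertical axis) in each of the 6 arrays, for the 2 probe sets of Igfbp5 and the 6 of Igfbp4. Every Igfbp5 point of the Ihh-ablated arrays lies above every control point of its own probe set, and 4 of the 6 Igfbp4 probe sets show the reverse.

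Both genes are measured on the same array, so a single scaling factor per array cancels in their log2 difference, and quantile normalization moved the shift described here from 0.82 to 0.83. The log2 value of Igfbp5 minus that of Igfbp4, by brightest probe sets, was -0.96, -0.92 and -0.53 in control arrays and -0.01, 0.01 and 0.04 in Ihh-ablated ones. These values have no meaning as a ratio of transcripts, since probe sets differ in brightness, but their shift between genotypes does. The shift was 0.82 (-0.81 ± 0.24 against 0.01 ± 0.02, n = 3 each). It restates the opposite calls of both genes, which fix its direction and the gap between the groups, and is given as a description with no test. Leaving out 1 array moved the shift to between 0.74 and 0.95.

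The sequence upstream of these 2 genes is shown because they are the members that passed the test in opposite directions. The 250 bases before the RefSeq transcript start (GRCm38.p6) are given 5′ to 3′ on the strand of the gene, at chr1:72874866-72875115 (minus strand) for Igfbp5 and chr11:99040994-99041243 (plus strand) for Igfbp4. Capitals mark a match to 1 of 4 short motifs on either strand, which were the TATA box TATAAA, the GC box GGGCGG, the AP-1 site TGACTCA and CCACCCA, the core of the binding site of the GLI factors that carry the Hedgehog signal.
Igfbp5: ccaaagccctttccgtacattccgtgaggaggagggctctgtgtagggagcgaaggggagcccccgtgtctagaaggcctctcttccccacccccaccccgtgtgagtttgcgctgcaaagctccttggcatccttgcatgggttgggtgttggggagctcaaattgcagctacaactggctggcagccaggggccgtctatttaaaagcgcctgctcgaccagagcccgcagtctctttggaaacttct
Igfbp4: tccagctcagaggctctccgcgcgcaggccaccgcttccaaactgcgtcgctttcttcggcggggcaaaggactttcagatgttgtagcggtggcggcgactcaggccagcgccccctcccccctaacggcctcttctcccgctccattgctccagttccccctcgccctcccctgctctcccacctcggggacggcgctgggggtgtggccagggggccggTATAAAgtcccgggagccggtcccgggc

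The Igfbp4 window holds TATAAA from 28 to 23 bases before the start, and none of the other motifs. The Igfbp5 window holds none of the 4. Among 32851 RefSeq windows of the same length, TATAAA occurs in 12.4%, GGGCGG in 32.7%, TGACTCA in 4.46% and CCACCCA in 8.11%. The CCACCCA core was found in none of the 14 windows of the 10 genes, whose alternative starts give Igf2 4 windows and Igfbp2 2. No match says only that these letters are not in these windows. The G and C content was 58.8% for Igfbp5 and 69.2% for Igfbp4, beside a median of 52.4% for all windows.

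Igfbp2, Igfbp6 and Igfbp7 were lower and Igfbp3 higher in Ihh-ablated uteri by values that did not pass. Igfbp2, which encodes a binding protein of the extracellular fluid, read 174.2, 183.1 and 167.2 in control arrays and 139.4, 115.5 and 134.7 in Ihh-ablated uteri on its single probe set. No Ihh-ablated array reached the lowest control array, and the log2 difference of -0.43 had a 95% interval, unadjusted for the number of tests, of -0.71 to -0.16 (adjusted p = 0.104). It was called in 0 of 19 alternatives, where the adjusted p was 0.0665 at the lowest.

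Igfbp2 and Igfbp5 are next to each other in the RefSeq gene order, with 0 genes between them, and their differences had opposite signs, of which only that of Igfbp5 passed. Ihh lies on the same chromosome, 60 genes beyond Igfbp5. Both genotypes carry the floxed allele there. Of the 21 tested genes in between, 1 rose and 0 fell (median log2 difference -0.04), where 2.81% of all tested genes were called, 1.28% higher and 1.53% lower. An effect of the linked region was not tested.

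Igfbp3, whose product carries most circulating IGF, had 2 probe sets with the same direction. The brightest read 428.7, 336.6 and 389.8 in control arrays and 455.4, 455.6 and 622.7 in Ihh-ablated uteri, and the groups were apart by a narrow gap. The log2 difference was 0.40 (0.07 to 0.73, adjusted p = 0.160). The other read 405.3, 225.5 and 337.1 against 421.3, 359.0 and 571.3, with overlap (0.50, interval -0.02 to 1.01, adjusted p = 0.229). Both were lowest in control replicate 2 and highest in Ihh-ablated replicate 3, the array with the most adipocyte transcript, and with the adipocyte covariate they gave 0.36 and 0.56, each with an adjusted p of 0.593.

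Igfbp6, which binds IGF2 in preference to IGF1, read 2724, 2700 and 2459 in control arrays and 2370, 2212 and 2151 in Ihh-ablated uteri. The groups did not overlap, although control replicate 3 came near the Ihh-ablated arrays, and the log2 difference was -0.23 (-0.38 to -0.08, adjusted p = 0.108). Without control replicate 3 it passed (-0.27, adjusted p = 0.0365). Igfbp7 encodes a vascular and stromal matrix protein with low affinity for IGFs. Its brightest probe set read 5479, 5057 and 5135 in control arrays and 4238, 4716 and 4808 in Ihh-ablated uteri, again without overlap (-0.19, interval -0.32 to -0.05, adjusted p = 0.126). Its 2 dimmer probe sets gave -0.16 and -0.21 with overlapping groups (adjusted p = 0.447 and 0.365).

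The transcripts whose pattern over the 6 arrays came closest to each called gene were found by the root mean square difference between log2 values centred on each gene's own mean, among 15520 other tested genes. For Igfbp5 these were Lratd2 (0.04, log2 difference 0.60), Grina (0.05, 0.60) and Fam219a (0.05, 0.51). For Igfbp4 they were Morn2 (0.02, -0.24), the nuclear import receptor Kpnb1 (0.03, -0.21) and the tubulin Tubb5 (0.03, -0.23). Lratd2, for example, read 233.4, 218.6 and 286.1 in control arrays and 353.4, 383.8 and 376.1 in Ihh-ablated uteri, with the same high control replicate 3 as the brightest Igfbp5 probe set. With 6 arrays in 2 groups, any gene of like difference and like spread can score so.

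Beyond the 10 genes, 3 lists of IGF-related genes gave 3 rises and 0 falls among 48 tested genes, 14 of the proteases that cut binding proteins and of their inhibitors, 26 of receptor signalling and 8 of other family members, where 2.81% of all tested genes were called, 1.28% higher and 1.53% lower. In the protease list 2 genes rose and 12 did not pass, none fell, and the median log2 difference was 0.12, beside -0.04 for all genes. Htra1, a secreted serine protease that can cut IGFBP5, read 1183, 1197 and 1122 in control arrays and 1553, 1817 and 1594 in Ihh-ablated uteri. The groups lay far apart, and the log2 difference was 0.50 (SE 0.08, adjusted p = 0.0159). Its second probe set gave 0.34 with overlapping groups (adjusted p = 0.160).

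Htra3, a serine protease of the same family that is prominent in the decidualizing uterus, read 1180, 1144 and 1344 in control arrays and 2093, 2083 and 2405 in Ihh-ablated uteri. Every Ihh-ablated array lay far above every control array (1.79-fold, log2 0.84, SE 0.09, adjusted p = 0.00271), and the call held without any 1 array. The 2 dim probe sets of Htra3 gave 0.33 and -0.01 (adjusted p = 0.214 and 0.962), and their mean with the bright one did not pass (0.39, adjusted p = 0.0787). Htra1 lost its call without control replicate 1 (0.0718), control replicate 2 (0.0550) or Ihh-ablated replicate 1 (0.0509). It also lost its call without an intensity trend (0.0693), where Htra3 kept its own (0.0186). With the adipocyte covariate the adjusted p was 0.180 for Htra1 and 0.0672 for Htra3, at differences of 0.52 and 0.73.

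Pappa, a protease that cuts IGFBP4, differed by 0.13 (adjusted p = 0.508), and its inhibitors Stc1 and Stc2, the stanniocalcins, by 0.20 and 0.19 (0.381 and 0.477). A dimmer Stc2 probe set was higher in each Ihh-ablated array without passing (0.61, adjusted p = 0.119). The brightest Pappa probe set read 144.5, 165.3 and 158.8 in control arrays and 179.9, 164.0 and 167.7 in Ihh-ablated uteri, which overlapped. A dimmer one, 1432592_at, gave -0.03 (adjusted p = 0.906). Another, 1432591_at, was too dim to be tested. It read 46.5, 25.9 and 54.6 in control arrays and 76.3, 64.4 and 89.1 in Ihh-ablated uteri, without overlap. Adam12, a metalloprotease that can cut IGFBP3 and IGFBP5, was picked out after its values were seen. It read 749.0, 698.1 and 509.9 in control arrays and 379.8, 487.7 and 330.1 in Ihh-ablated uteri (-0.71, adjusted p = 0.0766), and passed without control replicate 3 (-0.88, adjusted p = 0.0122). A dimmer Adam12 probe set gave -0.37 with overlapping groups (adjusted p = 0.219).

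**Figure D4:**
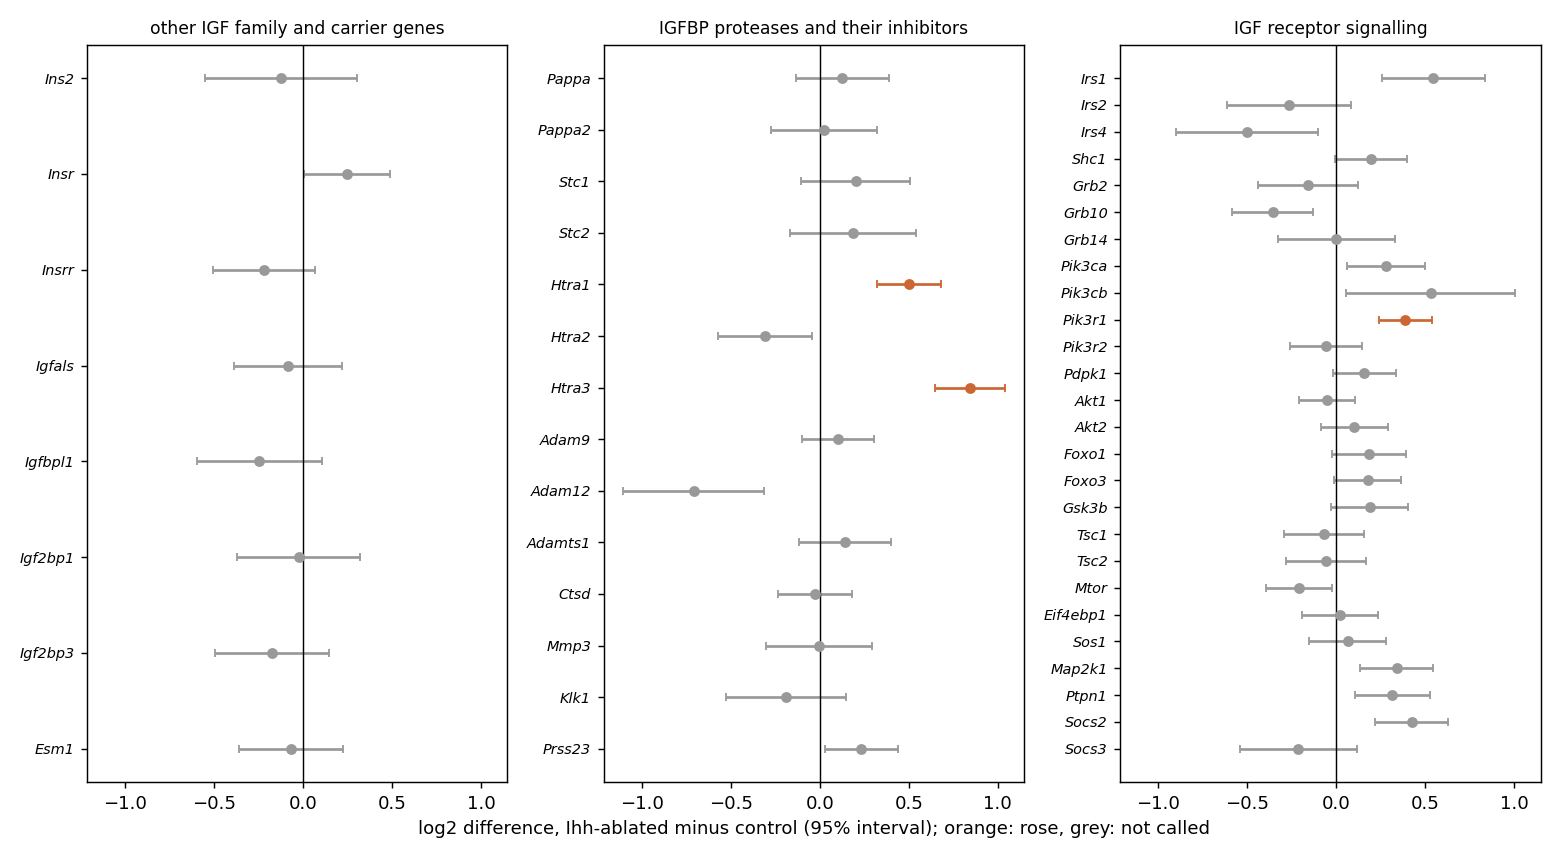
Log2 difference between Ihh-ablated and control arrays (horizontal axis) with 95% intervals for the 48 tested genes of 3 lists, each by its brightest probe set. Orange marks the 3 calls, Htra1 (0.50), Htra3 (0.84) and Pik3r1 (0.39), and all other genes are grey.

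In the receptor signalling list 1 of 26 tested genes rose, 0 fell and 25 did not pass, a share near the 2.81% of all tested genes called, with a median of 0.08 beside -0.04 for all genes. The rise was that of Pik3r1, the p85 alpha regulatory subunit of the kinase that IGF and insulin receptors activate. It read 1186, 1193 and 1151 in control arrays and 1585, 1479 and 1556 in Ihh-ablated uteri, a tight separation (log2 0.39, SE 0.07, adjusted p = 0.0209). A second Pik3r1 probe set was called too (0.43, adjusted p = 0.0403), and the other 2 gave 0.38 and 0.17 (0.181 and 0.477). The Pik3r1 call was lost without each array but control replicate 3 (adjusted p = 0.0505 to 0.115) and with the adipocyte covariate (0.41, adjusted p = 0.188). It was lost without an intensity trend too (adjusted p = 0.0930).

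Irs1, the docking protein that links both receptors to that kinase, read 1702, 1682 and 2361 in control arrays and 2682, 2566 and 3048 in Ihh-ablated uteri. As for the brightest Igfbp5 probe set, control replicate 3 was the high control array, and the groups did not overlap (0.54, adjusted p = 0.0647). Without control replicate 3 Irs1 passed (0.71, adjusted p = 0.00296). Irs2 differed by -0.27 (adjusted p = 0.323). Socs2, an inhibitor of growth hormone signalling, and Grb10, an adaptor that restrains IGF and insulin receptors, were picked out after their values were seen. Socs2 gave 0.42 (adjusted p = 0.0501) and Grb10 -0.36 (adjusted p = 0.103), and both passed without control replicate 3 (adjusted p = 0.0404 and 0.0454). Dimmer Grb10 probe sets gave 0.09 and -0.11 with overlapping groups (adjusted p = 0.695 and 0.766). Dimmer tested Socs2 probe sets ran from -0.0008 to 0.59 and did not pass. Calls over all tested probe sets also varied widely with the array left out. The passes without control replicate 3 given here and above are therefore not read as particular to IGF genes.

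Of the other family members, 0 of 8 tested genes passed in limma, with 1 at an unadjusted p under 0.05 and a median of -0.11. Among all tested probe sets, 7736 of 33778 were under that unadjusted level. Insr, the insulin receptor, read 334.9, 288.2 and 337.8 in control arrays and 368.0, 363.4 and 405.6 in Ihh-ablated uteri, without overlap but short of the threshold (0.24, adjusted p = 0.214), and its other 2 tested probe sets gave -0.10 and -0.26. Igfbp1, a binding protein known for its rise in human decidual cells and the direct neighbour of Igfbp3, was too dim to be tested, at 34.5 to 53.4 in all 6 arrays.

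Cell type markers differed along with these genes. All 7 tested epithelial markers had a higher mean in Ihh-ablated arrays, with 0 calls in limma and 5 at an unadjusted p under 0.05. Over the whole array 7736 of 33778 tested probe sets had an unadjusted limma p under 0.05. Their summed intensities were 7703, 8357 and 10819 in control replicates 1, 2 and 3 and 10837 to 12040 in Ihh-ablated arrays. By these markers control replicate 3 lay nearer to the Ihh-ablated arrays than to the other control arrays. Of 7 tested gland markers 4 rose, with sums of 3529 to 4197 and 5981 to 8599. The highest sum was that of Ihh-ablated replicate 2, the array with pancreas transcripts. Spink1, among the 4 that rose, read 1981 there, against 1005 and 884.2 in Ihh-ablated replicates 1 and 3. Beside these and the following marker counts, 2.81% of all tested genes were called, 1.28% higher and 1.53% lower. Of 12 stroma markers 1 rose and 2 fell, and 10 had a lower mean in Ihh-ablated arrays (median log2 difference -0.15), with the sums given above, which did not overlap. Of 8 endothelial markers 1 fell, Cdh5 (-0.57, adjusted p = 0.0275), and 6 had a higher mean, among them Vwf (0.63, adjusted p = 0.0730). Sums of the endothelial markers were 4899 to 5485 and 4886 to 5531, which overlapped. Those of 8 macrophage markers, 2886 to 3010 and 2869 to 3150, overlapped too. The part of any of these cell types, or of adipocytes, in the differences of the IGF genes was not tested.

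**Figure D5:**
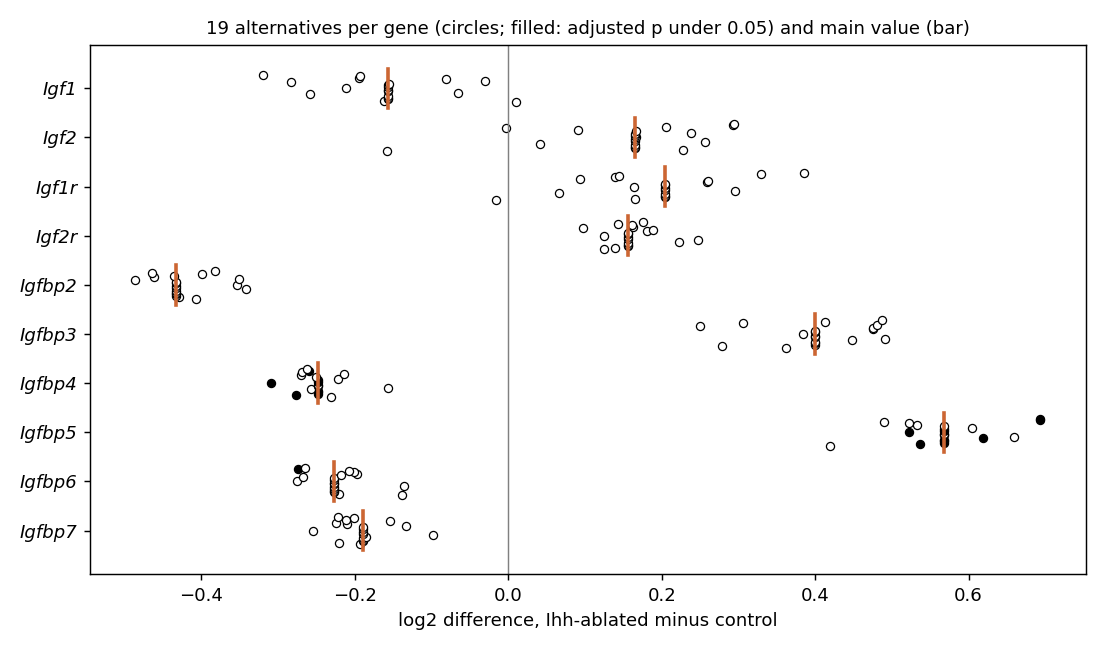
Log2 difference between Ihh-ablated and control arrays (horizontal axis) of the brightest probe set of each of the 10 genes under 19 alternative settings (circles, filled where the adjusted p is under 0.05) and as reported (bar). Igfbp5 and Igfbp4 keep their direction in all 19 settings and their call in 11 and 8 of them, and Igf1, Igf2 and Igf1r cross 0.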

How the data were processed

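Total RNA of uterine tissue was labelled as biotinylated cRNA for Affymetrix arrays, per the labels' protocols. The deposited values are the authors' processed probe set intensity on a linear scale. How probes were summarised, background-corrected and normalized is not given in the sources used here, and no detection calls were used, so dim probe sets carry the most uncertain folds. The source label names a Smoothened model in both groups, against titles, genotypes and design text, and was not used for grouping.

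Of 45101 probe sets, 64 controls were left out. The platform annotation gave 34945 probe sets 1 symbol, 932 several and 9160 none. Intensities under 16 were set to 16 (1821 values), log2 was taken, and 33778 probe sets stayed after the dimmest 25% by mean were dropped. The fit used limma 3.58.1 under R 4.3.3, with lmFit and an eBayes prior that follows intensity (4 residual degrees of freedom and 5.25 from the prior). P-values were adjusted (Benjamini-Hochberg) across these 33778, and those under 0.05 were called. The fit was also run on simulated data with independent noise and shifts larger than that of Igfbp4. Those data lack the tissue signals that differ between these arrays, so that run does not speak of such signals or of small shifts. Genes were represented by their brightest probe set. The named genes were the 10 members, called genes of the IGF-related lists, Insr, Irs1, Irs2, Igfbp1, Pappa, Stc1, Stc2 and Htra1, the Hedgehog genes and the 3 closest patterns per called member. Members, lists and alternatives were chosen with earlier results of these data known. Promoters come from RefSeq, where all 10 genes matched. The number of arrays limits the precision. Figures used matplotlib 3.10.9.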

Additional observations from a re-analysis of the deposited data

How the results depend on the processing

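Alternatives changed the scaling, floor, filter, variance model, array weights, arrays, block, covariate and the probe set standing for a gene. Over single probe sets, 683 of 778 values kept direction and side of the threshold, 54 lost a call, 29 gained one and 12 changed sign, none of these called. The member probe sets called, 5 as reported, were 1 with median-centred arrays, 3 without the filter, 1 without an intensity trend and 0 (8 at an unadjusted p under 0.05, limma) with the adipocyte covariate. Leaving out 1 array gave 0 (without control replicate 1, with 13 at an unadjusted p under 0.05) to 9 (without control replicate 3), while each other array left out gave 1 call, or 2 for Ihh-ablated replicate 2. The 3 other IGF-related genes called became 1 without a trend, 5 with array weights, 6 with the replicate block, 0 with the mean of probe sets (14 at an unadjusted p under 0.05), 6 without control replicate 3 and Ihh-ablated replicate 2, 0 with the adipocyte covariate (8 unadjusted), and 1 to 10 with 1 array left out (10 without control replicate 3). The 724 calls over the whole array became 374 without a trend, 1411 with array weights, 1562 with the replicate block, 1981 without those 2 arrays, 22 with the covariate and 148 to 3582 with 1 array left out. Median-centred arrays gave 286 higher and 201 lower calls, against 348 and 376 as reported. In the fit as reported, 7736 of 33778 tested probe sets had an unadjusted limma p under 0.05. That number is not given here for the other settings. Sign changes were those of Igf1r 1446303_at (0.051 by quantile normalization, 0.043 median-centred), Igf1 1434413_at (0.028) and Igf2 (-0.0024) without control replicate 1, where leaving out arrays gave values down to -0.34 and up to 0.29 respectively, Insr with the mean of probe sets (-0.041), and, with the covariate, Igf1 (0.011, 0.14 and 0.039), Igf2 (-0.16), Igf1r (-0.016), Igfbp7 1423585_at (0.021) and Stc2 (-0.028). The cause of these changes was not tested. Deviations from group means correlated at -0.15, -0.04 and 0.25 for equal replicate numbers. The best partner of control replicate 1 was Ihh-ablated replicate 2 (0.09), and that of control replicate 2 was Ihh-ablated replicate 1 (0.32). For control replicate 3 it was the Ihh-ablated array of the same number (0.25). With 3 arrays per group these values cannot settle whether replicate numbers pair the arrays. With the replicate block 6 member probe sets were called. The number of arrays, 3 per group, and the lack of a stated background limit what can be said of dim probe sets.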
